A study of Caenorhabditis elegans with 2 samples.

Results

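PHA-4 peaks at divergent promoters were the chromatin sites whose summit lay in the promoter windows of protein-coding genes on opposite strands, so that a single site faced a gene on each side. Each 5' end annotated in Ensembl release 115 was given a promoter window with 1000 bp before it and 200 bp after it, and a peak was kept when its summit lay in the windows of at least 2 protein-coding genes with at least 1 on each strand. Of 2177 thresholded peaks, 448 met this rule (20.6%, 95% exact binomial interval 18.9 to 22.3). The others were 888 peaks in the window of a single gene, 27 in the windows of several genes on the same strand, and 814 outside promoter windows. The peaks came from ChIP-seq of PHA-4 fused to eGFP in C. elegans strain OP37, which has the unc-119(ed3) allele on chromosome III and the integrated array wgIs37 that supplies the tagged protein. All material was whole embryos of mixed stages with the sexes pooled, in 1 group of 2 biological replicates, each from its own biosample. The labels name pha-4 as the antibody and eGFP-pha-4 as the target, and give no extraction protocol. Because whole embryos were used, binding in more cells and stronger binding in fewer cells cannot be told apart. The promoter that drives the tagged gene on the array is not given in the sources used here.

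PHA-4 is the C. elegans member of the FoxA family, forkhead transcription factors that can bind their sites in closed chromatin. It specifies the pharynx, the feeding organ, acts again later in the intestine and other digestive tissue, and binds DNA through a forkhead domain that prefers words of the type TGTTTAC and TGTTTGC. Many C. elegans genes lie head to head with a neighbour, and a site between such 5' ends cannot be given to either gene from its position alone.

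Sequence between the paired genes is given for 9 of these sites, to show what the summits of strong shared promoters hold. These are the 7 strongest of the 183 peaks whose window met no annotated exon and could be printed, and those of the 4 strongest such peaks with a FoxA-type word that were not among the 7. Each is the plus strand of ce11 from the RefSeq WBcel235 genome, 5′ to 3′, 201 bases long with the summit at base 101. Capitals mark, on either strand, a FoxA-type word (TGTTTAC or the form TGTTTGC), the GA repeat GAGAGA, and the word GACGCAG.
rpl-20 and Y17G9B.5, chrIV:4749965-4750165: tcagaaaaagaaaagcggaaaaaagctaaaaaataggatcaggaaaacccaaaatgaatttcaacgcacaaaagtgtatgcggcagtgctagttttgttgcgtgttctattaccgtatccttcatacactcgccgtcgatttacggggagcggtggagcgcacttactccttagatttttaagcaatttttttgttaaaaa
rpl-15 and K11H12.8, chrIV:654821-655021: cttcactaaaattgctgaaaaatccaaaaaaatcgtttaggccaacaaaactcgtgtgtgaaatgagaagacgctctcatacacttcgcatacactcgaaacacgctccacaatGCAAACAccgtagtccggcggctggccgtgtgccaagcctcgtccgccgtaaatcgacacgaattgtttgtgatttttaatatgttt
rps-12 and ska-3, chrIII:5679028-5679228: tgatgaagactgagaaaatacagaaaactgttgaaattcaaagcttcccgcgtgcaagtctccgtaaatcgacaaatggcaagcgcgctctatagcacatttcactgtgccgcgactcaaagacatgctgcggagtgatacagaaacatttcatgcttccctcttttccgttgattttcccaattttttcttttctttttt
drr-2 and set-16, chrIII:13643635-13643835: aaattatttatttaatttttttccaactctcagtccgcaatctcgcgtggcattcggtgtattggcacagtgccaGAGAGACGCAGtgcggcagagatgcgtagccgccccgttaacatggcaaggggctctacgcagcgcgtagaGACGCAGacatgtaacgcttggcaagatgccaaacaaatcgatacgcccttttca
wip-1 and larp-1, chrIII:5018217-5018417: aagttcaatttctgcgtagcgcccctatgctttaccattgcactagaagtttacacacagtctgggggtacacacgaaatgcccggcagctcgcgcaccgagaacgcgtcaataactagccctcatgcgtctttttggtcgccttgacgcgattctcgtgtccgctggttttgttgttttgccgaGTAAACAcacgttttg
hsp-90 and C47E8.4, chrV:14685691-14685891: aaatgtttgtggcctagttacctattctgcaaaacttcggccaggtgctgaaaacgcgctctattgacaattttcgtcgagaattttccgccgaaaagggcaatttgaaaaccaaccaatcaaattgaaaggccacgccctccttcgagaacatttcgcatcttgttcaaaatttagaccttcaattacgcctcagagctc
cls-2 and R107.5, chrIII:9053967-9054167: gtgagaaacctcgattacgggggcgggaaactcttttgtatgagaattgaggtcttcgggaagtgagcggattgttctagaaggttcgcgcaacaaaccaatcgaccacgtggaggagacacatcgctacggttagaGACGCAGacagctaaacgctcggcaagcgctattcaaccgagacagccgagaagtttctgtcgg
trap-2 and ile-2, chrX:768172-768372: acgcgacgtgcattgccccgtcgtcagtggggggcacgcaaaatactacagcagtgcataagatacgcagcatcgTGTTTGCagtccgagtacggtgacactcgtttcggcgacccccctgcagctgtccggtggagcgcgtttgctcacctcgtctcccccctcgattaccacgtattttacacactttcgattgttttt
pld-1 and C04G6.2, chrII:5092463-5092663: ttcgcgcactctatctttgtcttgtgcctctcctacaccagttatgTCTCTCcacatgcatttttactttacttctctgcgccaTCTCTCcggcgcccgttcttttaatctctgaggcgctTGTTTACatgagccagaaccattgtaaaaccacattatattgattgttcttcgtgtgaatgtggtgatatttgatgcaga

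Of these windows, that of rpl-15 and K11H12.8 holds a FoxA-type word on the minus strand, close to the summit. The window of drr-2 and set-16 holds GAGAGA overlapping GACGCAG and a further GACGCAG. The windows of rpl-20, rps-12 and hsp-90 hold none of the 4 words, although the rpl-20 peak was the third strongest of all divergent-promoter peaks. The peak between hsp-90, the cytosolic Hsp90 gene, and C47E8.4, a FAM50 homologue, had a signal of 149 in the pooled list, 94.4 in replicate 1 and 53.7 in replicate 2, where signal is the value the authors' peak caller gave each peak. That between cls-2, a microtubule-binding CLASP gene, and R107.5 had 141 in the pooled list, 70.2 in replicate 1 and 68.3 in replicate 2. The window of pld-1, the phospholipase D gene, and C04G6.2 holds a GA repeat in 2 places besides TGTTTAC, and its signal was 125 in the pooled list, 33.96 in replicate 1 and 96.6 in replicate 2. The replicate with the larger value thus differed among these sites, though the replicate lists are not scaled to each other. Each of them met an entry among the 2177 strongest of either replicate. Their choice by pooled signal, from the same 2 libraries, favours such matches.

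Divergent promoters were a small target that held many of the strongest peaks. Positions that met the rule covered 2.33% of the nuclear genome and 8.93% of all promoter-window sequence, and they held 448 of 1363 promoter peaks (32.9%, interval 30.4 to 35.4). They held 11 of the 25 strongest thresholded peaks (44%, interval 24.4 to 65.1), 37 of the strongest 100 and 115 of the strongest 500 (23%). In 5 classes of 435 or 436 peaks ordered from strongest to weakest, the share at divergent promoters was 24.8%, 22.2%, 21.4%, 16.3% and 18.2%. In the pooled list, which was called on both replicates together and keeps weak entries, 1206 of 21931 entries (5.50%) lay at divergent promoters. Of those 1206, 37.1% were in the thresholded set (interval 34.4 to 39.9), against 13.5% of 6575 entries at single-gene promoters, 5.81% of 14018 outside promoters and 9.93% of all entries. All classes of peaks came from the same 2 libraries, so differences between classes were not tested, and intervals cover the counting of peaks or genes only. The depth of each replicate is unknown.

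The median signal of divergent-promoter peaks was close to that of single-gene promoter peaks. Signals of different lists are not scaled to each other. The pooled median was 56.8 at divergent promoters (range 36.0 to 249.8), 55.4 at single-gene promoters (35.9 to 348) and 50.8 outside promoters. In replicate 1 the medians were 27.8 at divergent promoters, 26.2 at single-gene promoters and 21.9 outside. In replicate 2 they were 30.6 at divergent promoters, 31.7 at single-gene promoters and 32.1 outside. The order of the 3 classes in replicate 1 was thus the reverse of that in replicate 2, and all distributions overlapped widely.

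**Figure D1:**
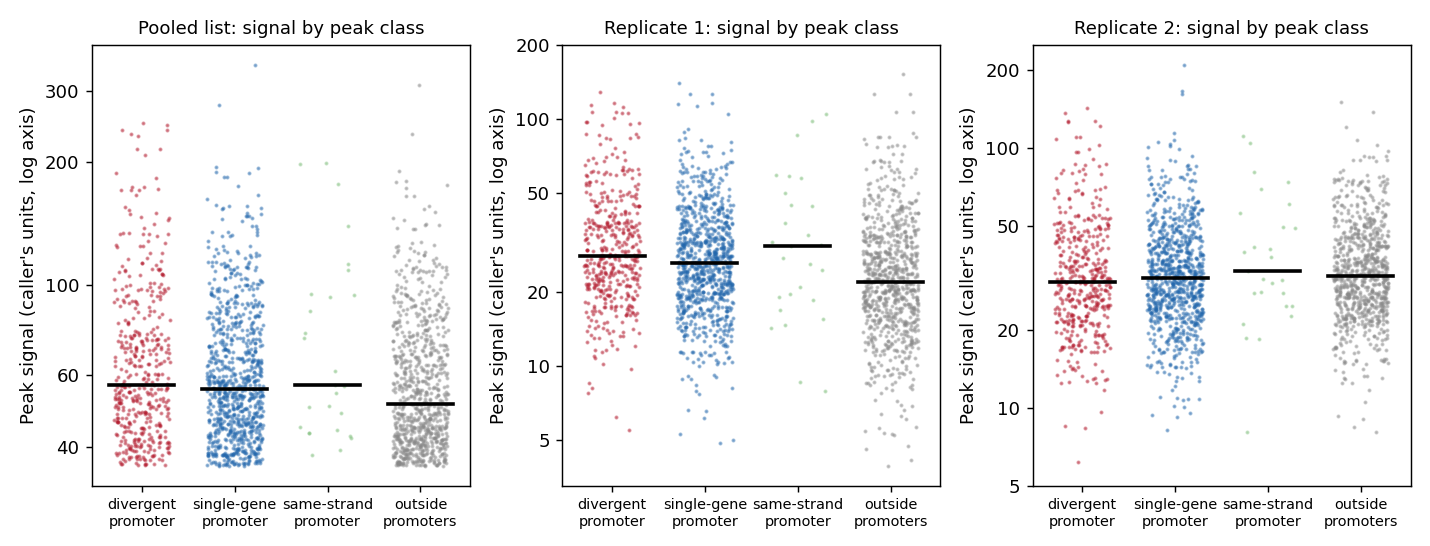
Peak signal (caller's units, log axis) of every thresholded peak in the pooled list, replicate 1 and replicate 2, by class, with each point a peak and each black line the class median. Medians of divergent-promoter peaks were 56.8, 27.8 and 30.6 in the 3 panels, against 55.4, 26.2 and 31.7 for single-gene promoter peaks.

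Of the 15 strongest divergent-promoter peaks, 11 lay at a gene of a ribosomal protein, a translation factor, a chaperone, the proteasome or the Sec61 translocon, and the partner was usually of another kind. Among all 448 members, 38 peaks lay at cytosolic ribosomal protein genes, 13 at translation factor genes and 17 at chaperone genes. A further list, the proteasome, had 10 peaks, and Sec61 and TRAP had 3. A peak can count in several lists. The lists were chosen with earlier results known, and the difference was not tested. The peak between tasp-1, which encodes a threonine aspartase homologue, and K01G5.10, a haloacid dehalogenase-like hydrolase gene, was the strongest, with a signal of 249.8 in the pooled list, 106 in replicate 1 and 143 in replicate 2. The peak between dnj-14, a J-domain co-chaperone gene, and glit-1, a neuroligin-like gene, had 248 in the pooled list, 114 in replicate 1 and 137 in replicate 2. Between rpl-20 and Y17G9B.5, an ECSIT homologue, the signal was 240.3 in the pooled list, 112 in replicate 1 and 127 in replicate 2. These peaks ranked 4, 5 and 6 among all thresholded peaks and were among the 16 strongest entries of each replicate.

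Ribosomal protein genes recurred among the next sites. The peak between rps-1 and ifet-1, a translational repressor gene of the eIF4E-binding kind, had 240.0 in the pooled list, 129 in replicate 1 and 111 in replicate 2. The peak between rpl-15 and K11H12.8, annotated as a growth hormone-inducible transmembrane protein gene, had 234.5 in the pooled list, 106 in replicate 1 and 126 in replicate 2. At iff-2, which encodes the translation factor eIF5A, and F54C9.14, it had 233 in the pooled list, 107 in replicate 1 and 128 in replicate 2. The peaks between hsr-9 and rps-19 (216), between ska-3 and rps-12 (209) and between lin-54 and rpl-12 (188) had the same form, a ribosomal protein gene on one strand and, on the other, a DNA damage response gene, a spindle and kinetochore-associated gene and the gene of the DNA-binding subunit of the DREAM repressor complex.

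The remaining sites among the 15 strongest included pairs in which each gene had a part in protein handling. The peak between rpn-3, a regulatory subunit gene of the proteasome, and hsp-110, a nucleotide exchange factor of Hsp70, had 216 in the pooled list, 106 in replicate 1 and 109 in replicate 2. That between trap-3 and sec-61.B, whose products sit together at the translocon of the endoplasmic reticulum, had 183 in the pooled list, 97.0 in replicate 1 and 86.4 in replicate 2. The others were drr-2 with the histone methyltransferase gene set-16 (174), tag-340 with nhl-2, a cofactor of microRNA silencing (174), wip-1 with larp-1, an RNA-binding protein gene (172), and pdtf-1 with T26A8.4 (171). Each of the 15 met an entry among the 2177 strongest of either replicate. The 15 were chosen by pooled signal, called on both replicates together, and this choice favours such matches.

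The rule allows a summit at most 200 bp downstream of an annotated 5' end of each gene. Most summits thus had to lie between 5' ends of the paired genes, and their position is given as a description. Of 448 summits, 423 fell between the nearest opposite-strand 5' ends (94.4%, interval 91.9 to 96.4), and 25 lay outside that stretch. The distance between those 5' ends had a median of 498.5 bp, with quartiles of 323.5 and 741 bp and a range of -3 to 1727 bp, where a negative distance means that the 5' ends overlapped. The nearer 5' end was a median of 143 bp from the summit and the farther 343 bp. Of all members, 320 (71.4%) had both within 500 bp, and 159 (35.5%) had the nearer within 100 bp. The nearer 5' end belonged to the plus-strand gene in 52.5% of members (interval 47.7 to 57.2), an interval that includes an equal split. Of the 423 summits between 5' ends, 194 (45.9%, interval 41.0 to 50.7) lay in the central one of 3 equal stretches. For pairs more than 1000 bp apart, the rule itself excludes the positions closest to either 5' end. Only 4 summits met coding sequence and 30 met an untranslated region, and 414 met neither. Of all summits, 52 lay within the annotated bounds of a protein-coding gene, 18 of them in an intron.

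**Figure D2:**
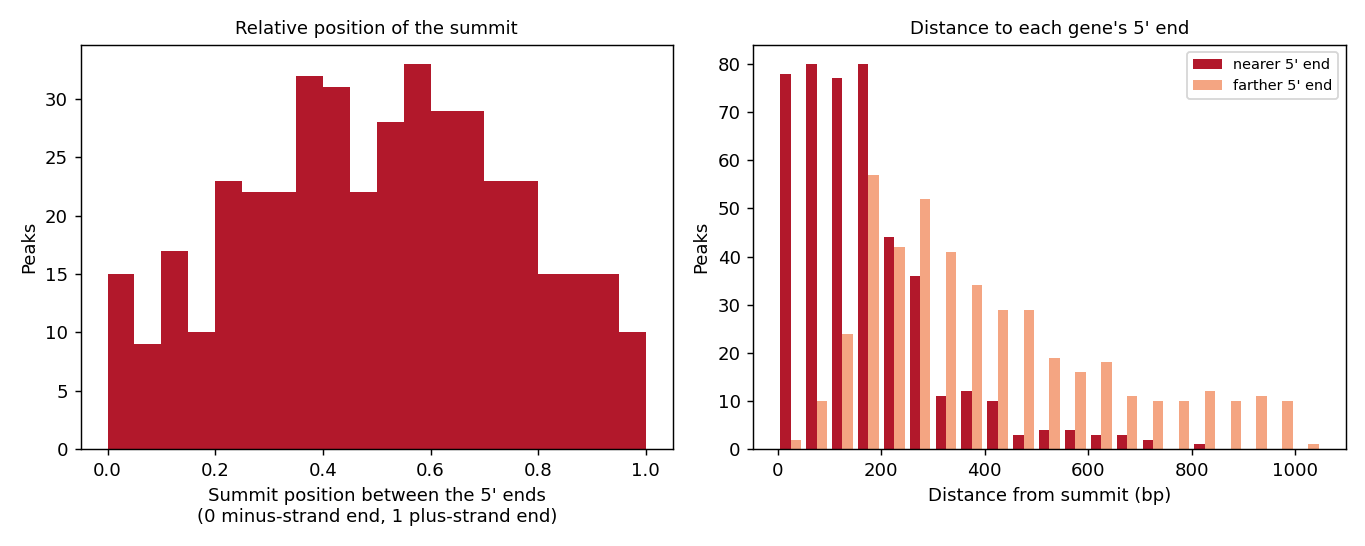
Left, number of peaks by relative summit position between the paired 5' ends for the 423 summits that lay between them (0, minus-strand gene; 1, plus-strand gene); right, number of peaks by distance (bp) from summit to the nearer and the farther 5' end for all 448 peaks. Summits were most frequent towards the middle, and the nearer 5' end was a median of 143 bp away, against 343 bp for the farther.

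The pairs with the closest and the farthest 5' ends show the span of these sites. The shortest distance, -3 bp, was between rpb-7, an RNA polymerase II subunit gene, and Y54E10BR.2, an ARF-related gene, where the peak had 69.5 in the pooled list, 44.4 in replicate 1 and 23.1 in replicate 2. F32D8.5 and F32D8.14 were 12 bp apart (75.3 in the pooled list, 38.4 in replicate 1 and 40.2 in replicate 2), and nbet-1, a SNARE gene, and Y59E9AL.36 were 20 bp apart (55.0 in the pooled list, 16.0 in replicate 1 and 42.4 in replicate 2). Among the widest were grk-1, a G protein-coupled receptor kinase gene, with F19C6.2 at 1727 bp (43.5), ipla-6 with mif-4 at 1659 bp (70.0) and the early endosome gene rab-5 with nmat-2 at 1598 bp (75.1). Signals at the ends of the distance range thus overlapped each other. Near the 1000 bp limit of the rule, 11 members whose farther 5' end was 950 to 1000 bp away had a median signal of 53.0 (36.3 to 141), and 10 peaks that missed the rule by up to 50 bp had a median of 49.4 (36.1 to 64.7).

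A site usually faced a single gene on each side. There were 415 members with 2 genes, 32 with 3 and 1 with 4, which lay among Y62E10A.20, Y62E10A.23, mdt-9 and the LSm gene lsm-3 (63.6 in the pooled list, 20.6 in replicate 1 and 42.0 in replicate 2). Members with 3 genes included that at the histone genes his-67 and his-68 and the Argonaute gene alg-5 (146) and that at ant-1.1, an adenine nucleotide translocase gene, with abcf-2 and T27E9.2 (107). The 448 peaks had 446 distinct nearest pairs, and 2 pairs carried more than 1 peak. Between atx-2, the ataxin-2 gene, and ecps-1, a proteasome adaptor gene, a peak 32 bp upstream of atx-2 had 105 in the pooled list, 38.0 in replicate 1 and 68.8 in replicate 2, and another, 203 bp upstream of ecps-1, had 65.5 in the pooled list, 26.4 in replicate 1 and 36.6 in replicate 2. The larger signal was on the atx-2 side in both replicates. At pdtf-1 and T26A8.4, the strong peak lay between 5' ends 145 bp apart, and a weaker one (67.8) lay before an inner 5' end of T26A8.4. No 2 members had overlapping intervals, and none lay within 25 kb of pha-4 or unc-119, the genes that the array or the strain background touches.

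The annotation held 3209 divergent gene pairs with overlapping windows, and 480 of them had a thresholded summit in both windows, or 15% of all such pairs. The share with a peak was highest at moderate distances between the 5' ends. It was 7.02% of 57 pairs with overlapping 5' ends and 13.1% at 0 to 200 bp, 28.2% at 200 to 400 bp (141 of 500, interval 24.3 to 32.4), 25% at 400 to 600 bp, 23.9% at 600 to 800 bp, 14.9% at 800 to 1000 bp, 7.75% at 1000 to 1500 bp and 0.993% at 1500 to 2000 bp. The sequence that both windows share changes with distance, so summits were also counted per length of shared window. This gave 263 and 254 summits per Mb in the 2 shortest classes, 405 at 200 to 400 bp, 277 at 400 to 600 bp, 218 at 600 to 800 bp, 138 and 103 in the next 2 and 41.3 in the widest class. The class at 200 to 400 bp was highest on both scales. Pairs with a peak had a median distance of 509 bp, against 884 bp for pairs without one. For pairs more than 1000 bp apart, the shared window leaves out the positions closest to either 5' end. The low values at those distances, and the difference in medians, thus rest partly on the rule.

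**Figure D3:**
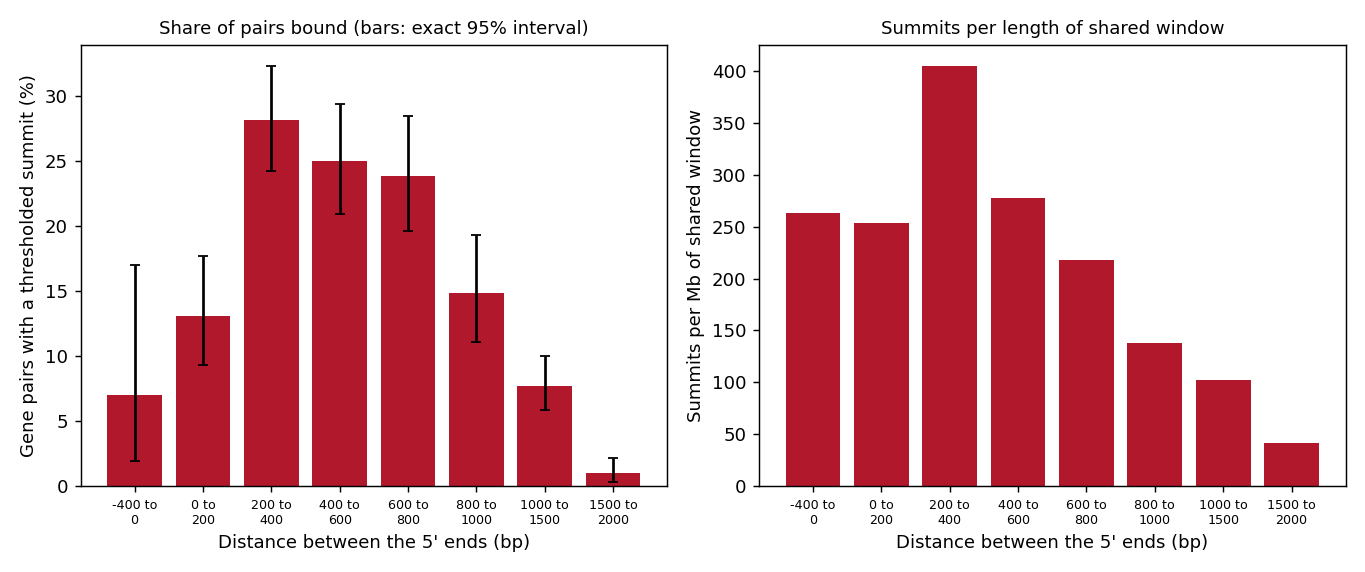
Left, percent of divergent gene pairs with a thresholded summit in both windows, by distance between the 5' ends (bp), with exact 95% intervals; right, summits per Mb of shared window in the same classes. Both were highest at 200 to 400 bp, where 28.2% of pairs had a peak and the density was 405 per Mb.

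The share of genes with a peak was larger in divergent pairs than elsewhere. The 448 peaks touched 925 of the 5872 genes of a divergent pair (15.8%), and with peaks of any promoter class the count was 1065 (18.1%, interval 17.2 to 19.1). Of 14101 genes in no such pair, 765 had a thresholded summit in the window (5.43%, interval 5.06 to 5.81), and over all 19973 protein-coding genes the share was 9.16%. A peak at a divergent promoter counts for each gene it faces, and the share per gene therefore rests on shared peaks.

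The replicates differed in how strong these sites were relative to the rest. Of 448 divergent-promoter peaks, 398 (88.8%, interval 85.6 to 91.6) met an entry among the 2177 strongest of replicate 1, and 345 (77.0%, interval 72.8 to 80.8) met one among those of replicate 2. For single-gene promoter peaks the shares were 83.8% and 82.1%, and for peaks outside promoters 72.6% and 84.9%. Both replicates covered 302 divergent-promoter peaks (67.4%, interval 62.9 to 71.7), against 595 of 888 single-gene promoter peaks and 64.1% of all thresholded peaks. Replicate 1 alone covered 96 (21.4%) and replicate 2 alone 43 (9.60%). At single-gene promoters the corresponding shares were 16.8% for replicate 1 alone and 15.1% for replicate 2 alone, and outside promoters 13.6% and 25.9%. Taken separately, the 2177 strongest entries of replicate 1 held 472 divergent-promoter entries (21.7%) and those of replicate 2 held 381 (17.5%).

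Signals of the replicates rose together across these peaks, with wide scatter. At divergent promoters, Spearman's rho was 0.472 over the 447 peaks that each replicate also listed and Pearson's r on the log2 scale was 0.527. Over 878 single-gene promoter peaks the values were 0.373 and 0.393. These are descriptions across peaks that share the same 2 libraries and were selected on pooled signal. The median log2 ratio of replicate 2 over replicate 1 was 0.08 (SD 0.72 across peaks) at divergent promoters, 0.26 (SD 0.74) at single-gene promoters and 0.60 outside promoters. Replicate 1 had the larger signal at 199 of 447 divergent-promoter peaks (44.5%), at 34.3% of single-gene promoter peaks and at 22.5% of peaks outside promoters. The replicate lists are not scaled to each other, so these ratios and shares can be compared between classes only.

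**Figure D4:**
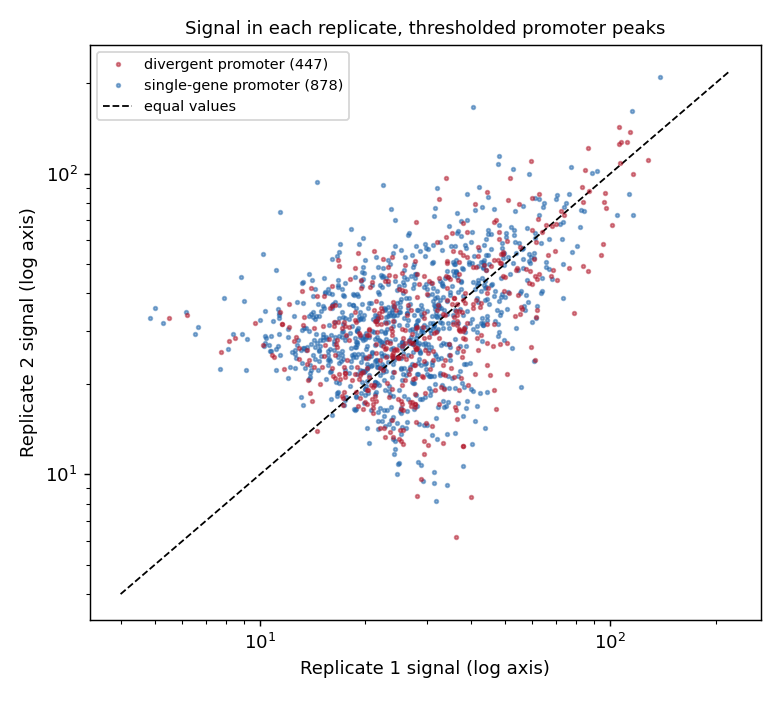
Signal of replicate 2 against replicate 1 (caller's units, log axes) for 447 divergent-promoter and 878 single-gene promoter peaks, each point a peak, with a dashed line at equal values. Divergent-promoter peaks straddle the line (median log2 ratio 0.08), and single-gene promoter peaks lie further towards replicate 2 (0.26).

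The largest differences in rank between replicates are given next. Ranks are closely spaced in signal low in a list, so a choice by rank difference favours weak peaks. The strong peak of pld-1 and C04G6.2 differed by more signal units than the peaks chosen here. Its log2 ratio of 1.51 was smaller in size than at most of them. Towards replicate 2, the peak between F11C1.7, a mitochondrial fission factor homologue, and F11C1.1 had 37.7 in the pooled list, 5.50 in replicate 1 and 33.2 in replicate 2, ranks 16184 and 988. The peaks between dna-2 and patr-1 (6.19 in replicate 1, 33.8 in replicate 2), at elb-1 (7.75 and 25.5), between hsb-1 and let-99 (8.18 and 27.8), and between Y45F10D.7 and the centriole gene sas-6 (8.50 and 28.4) went the same way. Towards replicate 1, the peak between mrpl-17, a mitochondrial ribosomal protein gene, and vbh-1, an RNA helicase gene, had 44.4 in the pooled list, 36.4 in replicate 1 and 6.18 in replicate 2. It was followed by R12C12.6 with ran-5 (40.04 in replicate 1, 8.38 in replicate 2), the kinetochore gene czw-1 with F20D12.12 (28.1 and 8.49), pcmd-1 with dhhc-7 (28.7 and 9.66), and rpl-7 with the recycling endosome gene rab-11.1 (29.5 and 11.7). Pooled signals of these 10 peaks lay between 37.7 and 48.5, below the median of all members.

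Genes of translation were frequent at divergent-promoter peaks. Of 81 cytosolic ribosomal protein genes, 53 were in a divergent pair and 41 of those (77.4%) lay at a divergent-promoter peak, beside 15.8% of all genes in such pairs. Of the 28 that were in no divergent pair, 20 also had a thresholded promoter peak, beside 5.43% of all genes in no such pair. Ribosomal protein genes were thus bound often in either setting. Their 38 peaks had medians of 85.5 in the pooled list, 50.3 in replicate 1 and 39.0 in replicate 2. The 410 other divergent-promoter peaks had medians of 55.7, 27.0 and 30.3 in the same order. Signal was larger in replicate 1 at 31 of the 38 (81.6%, interval 65.7 to 92.3), against 168 of 409 others (41.1%, interval 36.3 to 46.0). Without the ribosomal sites, the share of divergent-promoter peaks with the larger signal in replicate 1 was still above the 34.3% of single-gene promoter peaks, and the difference was not tested.

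Within the ribosomal group the signals spread over a wide range, from 240.3 at rpl-20 to 41.2 at rpl-7. Some sites faced a ribosomal protein gene on each side. The peak between rpl-24.1 and rps-10 had 115 in the pooled list, 60.7 in replicate 1 and 52.2 in replicate 2. That between rpl-36 and rps-14 had 92.3 in the pooled list, 55.4 in replicate 1 and 34.3 in replicate 2, and that between rps-30 and rpl-39 had 90.4 in the pooled list, 51.6 in replicate 1 and 40.01 in replicate 2. A large-subunit gene faced a small-subunit gene in each of these. The value in replicate 1 was the larger at all 3, though the replicate lists are not scaled to each other. Other partners came from different machines of the cell, such as the mitochondrial ribosomal protein gene mrpl-49 with rpl-28 (76.9), the complex I gene nuo-1 with rpl-36.A (72.6) and the cuticle collagen gene col-38 with rpl-5 (101).

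Shares in other lists of protein synthesis varied. Of 42 translation factor genes, 24 were in a pair and 13 of those lay at a divergent-promoter peak (54.2%), beside 15.8% of all paired genes. They were led by iff-2, drr-2 and eef-1G, an elongation factor gene (150.3). Of 7 Sec61 and TRAP genes, 6 were in a pair and 4 of those lay at such a peak, too few to set against that share. These were trap-3 with sec-61.B, trap-2 with the cargo lectin gene ile-2 (132 in the pooled list, 44.6 in replicate 1 and 87.2 in replicate 2) and trap-4 with ccf-1 (44.8). Mitochondrial ribosomal protein genes had 9 of 30 paired genes at such a peak (30%), with mrps-7 the strongest (116). Of 15 paired aminoacyl-tRNA synthetase genes 4 had one, a count too small to set against that share. The strongest lay between ears-2 and uncp-18 (153 in the pooled list, 51.9 in replicate 1 and 96.8 in replicate 2). Among genes in no divergent pair, 7 of 18 translation factor genes and 4 of 40 mitochondrial ribosomal protein genes had a thresholded promoter peak. So did 1 of 17 synthetase genes, beside 5.43% of all genes in no such pair.

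Protein folding and turnover genes followed. Of 34 paired chaperone genes 18 (52.9%) lay at a divergent-promoter peak, beside 15.8% of all paired genes, with dnj-14, hsp-110 and dnj-13 (155.1) the strongest. The inducible small heat-shock genes hsp-16.2 and hsp-16.41, which share a promoter of 221 bp, had 57.6 in the pooled list, 29.2 in replicate 1 and 21.1 in replicate 2, close to the median of all members. Of 24 paired proteasome genes 10 did so (41.7%), led by rpn-3, pas-4 with rpb-3 (103) and rpn-5 with the cohesin gene scc-1 (91.0). Of 8 paired proton pump (V-ATPase) genes 2 did so, vha-1 with sqv-3 (98.7) and vha-8 with C17H12.2 (69.1), a count too small to set against that share. Of 22 paired genes on the list for the respiratory chain and ATP synthase 9 did so (40.9%), with atp-1 the strongest (133). That list went by name prefix and left out respiratory chain genes with other names, such as ndub-8 (113). Among genes in no divergent pair, 3 of 25 chaperone, 4 of 9 proteasome and 3 of 12 V-ATPase genes had a thresholded promoter peak. So did 6 of 16 on the respiratory chain list, beside 5.43% of all genes in no such pair.

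Lists of nuclear machinery differed in share. Of 31 paired genes of RNA polymerases and splicing, 16 (51.6%) lay at a divergent-promoter peak, the strongest between the splicing factor genes rsp-1 and rsp-2 (134 in the pooled list, 50.98 in replicate 1 and 81.9 in replicate 2). Of 6 paired DREAM complex genes, which repress cell cycle genes, 4 did so, too few to set against the 15.8% of all paired genes. These were lin-54, lin-53 with nra-2 (134), the E2F gene efl-1 with fbxa-90 (58.7) and the retinoblastoma gene lin-35 with vps-51 (38.7). Histone genes had 66 of 72 members in a pair, as core histone genes are arranged head to head, and 14 of the 66 (21.2%) lay at 7 distinct peaks, a share near the 15.8% of all paired genes. The strongest of these lay between his-67 and his-68 (146 in the pooled list, 72.2 in replicate 1 and 75.4 in replicate 2) and the weakest between his-5 and his-6 (36.3 in the pooled list, 22.1 in replicate 1 and 14.3 in replicate 2). Histone genes are near-identical copies, and whether reads were split among copies is not given in the sources used here. Among genes in no divergent pair, 5 of 21 genes of RNA polymerases and splicing had a thresholded promoter peak. So did 1 of 6 histone genes and 0 of 3 DREAM complex genes, beside 5.43% of all genes in no such pair.

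Chemoreceptor and C-type lectin genes were rare at these sites, beside 15.8% of all genes in divergent pairs. Of 25 pharynx genes 3 were in a divergent pair, and 1 had a divergent-promoter peak, the pharyngeal myosin gene myo-2 with cdf-2 (40.9 in the pooled list, 11.4 in replicate 1 and 34.6 in replicate 2). None of the 4 paired intestine genes had one. Among 10 paired ceh homeobox genes only ceh-38, a onecut gene, had one, shared with malt-1 (113 in the pooled list, 32.4 in replicate 1 and 82.3 in replicate 2). Nuclear receptor genes had 6 of 46 (13.0%), near the share of all paired genes, with nhr-47 beside the co-chaperone gene dnj-19 the strongest (88.3), and cuticle collagens had 4 of 46 (8.70%). None of 83 paired C-type lectin genes had one, and 8 of 298 paired chemoreceptor genes did (2.68%). The counts for pharynx, intestine and ceh genes rest on only 3, 4 and 10 paired genes, too few to set against that share. Among genes in no divergent pair, 1 of 1011 chemoreceptor and 0 of 157 C-type lectin genes had a thresholded promoter peak. So did 14 of 223 nuclear receptor and 0 of 110 collagen genes, beside 5.43% of all genes in no such pair.

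Several motif words differed in share between divergent-promoter summits and other peaks or unbound pairs. Each word was searched on both strands in the 201 bp centred on the summit, and for 2676 divergent pairs without a peak in the 201 bp centred between the 5' ends. The GA repeat GAGAGA stood in 132 of 448 windows (29.5%, interval 25.3 to 33.9) at divergent promoters, 47.2% at single-gene promoters (43.9 to 50.5), 58.6% outside promoters and 11.1% at unbound pairs. The order of divergent and single-gene promoters was the same in each replicate alone, with 28.4% against 46.6% in replicate 1 and 31.2% against 45.4% in replicate 2. GACGCAG, which can overlap the end of a GA repeat, stood in 13.4% at divergent promoters, 22.3% at single-gene promoters and 1.68% at unbound pairs, and 29 of the 60 members with it also held GAGAGA.

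The share of windows with a FoxA-type word was similar at divergent and single-gene promoters, with overlapping intervals. TGTTTGC or TGTTTAC stood in 87 of 448 divergent-promoter windows (19.4%, interval 15.9 to 23.4), 21.5% of single-gene promoter windows (18.8 to 24.4), 20.5% outside promoters and 9.23% of unbound pairs. The forms differed in share. TGTTTGC stood in 16.1% at divergent promoters, 14.1% at single-gene promoters and 5.79% of unbound pairs. TGTTTAC stood in 3.57% (2.05 to 5.74) at divergent promoters, 8.33% (6.60 to 10.3) at single-gene promoters and 3.66% of unbound pairs. The higher share of FoxA-type words at divergent promoters than at unbound pairs thus lay in TGTTTGC. In the divergent-promoter windows, the FoxA-type word of either form nearest the summit was a median of 24 bp away, and in 49 of 87 it was within 25 bp. The degenerate PHA-4 consensus TRTTKRY (R is A or G, K is G or T, Y is C or T), which includes the FoxA-type words, stood in 54.9% (50.2 to 59.6) at divergent promoters, 60.2% at single-gene promoters and 52.3% of unbound pairs. No FoxA-type word, GAGAGA or GACGCAG stood in 224 of 448 divergent-promoter windows (interval 45.3% to 54.7%), against 34.9% of single-gene promoter windows.

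Peaks with a FoxA-type word were found over the whole range of strength. With such a word the median signal was 63.0 in the pooled list, 28.1 in replicate 1 and 30.5 in replicate 2. Without one it was 56.4 in the pooled list, 27.8 in replicate 1 and 30.6 in replicate 2, so the replicates alone showed little difference. The strongest with a word were rpl-15 with K11H12.8, trap-3 with sec-61.B and wip-1 with larp-1. The weakest were F33H2.2 with dog-1 (37.1), C02B10.4 with snpn-1 (36.3) and the neuropeptide gene nlp-4 with exos-3 (36.0).

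**Figure D5:**
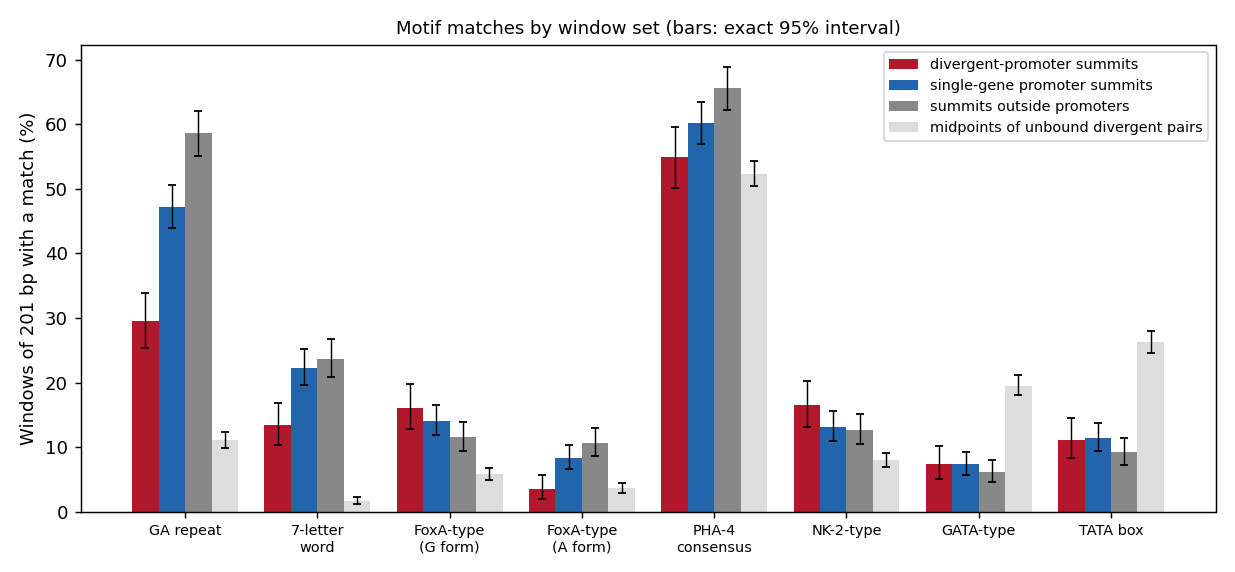
Percent of 201 bp windows with each word, with exact 95% intervals, at divergent-promoter summits, single-gene promoter summits, summits outside promoters and midpoints of divergent pairs without a peak. GA repeats stood in 29.5% of divergent-promoter windows against 47.2% of single-gene promoter windows and 11.1% at unbound pairs, and the 7-letter word is GACGCAG.

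Other words gave smaller contrasts among peaks. The NK-2-type word CAAGTG stood in 16.5% at divergent promoters, 13.2% at single-gene promoters and 7.96% of unbound pairs, and the T-box-type word TCACAC in 10.7%, 14.1% and 6.95% of the same sets. The GATA-type word TGATAA stood in 7.37% at divergent promoters and 7.32% at single-gene promoters, against 19.5% of unbound pairs, and TATAAA in 11.2% and 11.5%, against 26.3% of unbound pairs. Base composition moved with these shares. Mean GC content was 41.8% (SD 6.15 across windows) at divergent promoters, 45.02% at single-gene promoters and 34.5% at unbound pairs, and its part in the word shares was not tested. In windows centred between the 5' ends of bound pairs, as for the unbound pairs, GAGAGA stood in 19.3%, GACGCAG in 7.77%, a FoxA-type word in 13.2%, TGATAA in 17.6% and TATAAA in 20.8%. Like for like, the shares at unbound pairs were 11.1%, 1.68%, 9.23%, 19.5% and 26.3% for the same words. By FoxA-type form, TGTTTGC stood in 10.9% at bound and 5.79% at unbound pairs, and TGTTTAC in 2.52% and 3.66%. Mean GC content in these windows was 36.1% at bound and 34.5% at unbound pairs, closer than in the comparison with summit windows.

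Word content varied within the divergent promoters. GAGAGA stood in 23.8% of members with 5' ends up to 400 bp apart, 29.1% at 400 to 800 bp and 40.7% at wider distances, and the degenerate PHA-4 consensus in 64.3%, 51.3% and 45.1% of the same classes. Members at ribosomal protein genes held GAGAGA in 3 of 38 windows (7.89%, interval 1.66 to 21.4), against 31.5% of the 410 others, and a FoxA-type word in 2 of 38 (5.26%, interval 0.644 to 17.7), against 20.7% of the others. The degenerate consensus stood in 8 of 38 (21.1%, interval 9.55 to 37.3), against 58.0% of the others. Mean GC content was 42.0% in the ribosomal windows and 41.8% in the others. The ribosomal sites thus had a higher median signal than the other divergent-promoter peaks and held each of these words in a lower share of windows.

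Divergent-promoter peaks were spread unevenly over chromosomes. Chromosome III held 101 (22.5%) and chromosome I 95 (21.2%), V held 76, IV held 75 and II held 74, and X held 27 (6.03%). Chromosome X also held 6.20% of all divergent pairs, and it held 23.8% of single-gene promoter peaks. Of the promoter-window sequence of X, 3.31% lay in a shared window, against 8.93% over the genome. The share of pairs with a peak was 22.2% on III, 17.97% on I, 14.1% on X, 13.7% on IV, 13.5% on II and 10.4% on V. The low count on X thus went with few divergent pairs there, and its share of bound pairs lay within the range of the other chromosomes.

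Non-coding genes shared some of these promoters. A non-coding 5' end had its own window over the summit in 93 of 448 members (20.8%, interval 17.1 to 24.8) and in 24.2% of single-gene promoter peaks. Unclassified non-coding RNA genes were present at 65 members, small nucleolar RNA genes at 20, piRNA genes at 8, tRNA genes at 6 and microRNA genes at 2. At these sites the peak faced more than the protein-coding genes named for it.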

How the data were processed

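The data were peak lists from ChIP-seq of eGFP-PHA-4 in 2 biological replicates of 1 group. Per the file descriptions in the deposit, peaks were called for each replicate and for the pooled reads of both, with control reads, and irreproducible discovery rate (IDR) analysis gave the thresholded set. The signal of each peak was deposited by the authors as their caller gave it, not scaled between lists. The sources used here name no aligner, caller or IDR threshold. The controls and the ce10 lists were not analysed here. The thresholded set was the 2177 strongest pooled entries by signal, and each replicate list held 30000 entries.

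Summits of the ce11 lists were compared with Ensembl release 115 on the same assembly (WBcel235). Each peak took the signal of its strongest overlapping entry (1 bp or more) in each replicate. A pair of genes was bound when a summit lay in both windows. Shares have 95% exact (Clopper-Pearson) binomial intervals, which cover counting error only; depth is unknown. With 1 group, no tests were made.

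The members, gene lists (by gene-name prefix or spelled out) and motifs were chosen with earlier results of these data known. Named were the 15 strongest peaks, up to 3 members per gene list, pairs with both genes in a list, pairs with most peaks, the shortest and longest distances, the largest rank differences, peaks with most genes, and the strongest and weakest with a FoxA-type word. Further genes of a list were named where the count was 5 or fewer. Of the 8 strongest windows chosen for printing, the last is not reported here, nor is 1 pair among the named members. Gene products come from RefSeq annotation or general knowledge. Scripts, run with Python 3.11.15, numpy 2.4.6, pandas 2.3.3, scipy 1.17.1 and matplotlib 3.10.9, were tested on simulated data. Alternatives were the 1088 strongest peaks, each replicate alone, windows of 500 and 2000 bp, outermost 5' ends, 50% reciprocal overlap, summits within 50 bp, all replicate entries, 50 bp motif windows and the strongest peak of each pair.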

Additional observations from a re-analysis of the deposited data

How the results depend on the processing

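No paired analysis was possible because all samples form 1 group. Of 69 recomputed values, 44 stayed within the spread between replicates, the counting interval or 1.5 times the reported count. The spread was the SD of the values with either replicate left out, and those values were themselves judged against it. For the median signal it was the SD of the replicate medians, which are not on the scale of the pooled list. The tally is thus a description only. Among the 1088 strongest peaks, 244 were at divergent promoters, with 504 genes, 8.16% of pairs bound, a median signal of 75.6, 95.1% of summits between the 5' ends and 93.4% found in both replicates. With either replicate left out, the divergent share of promoter peaks was 30.1% to 33.1%, the median signal 27.5 to 33.3, the share of summits between the 5' ends 93.2% to 93.4%, the median distance 498.5 to 519 bp and the share of pairs bound 12.7% to 15.7%. A window of 500 bp gave a divergent share of 27.5%, a distance of 394 bp and GAGAGA in 25.9%, and one of 2000 bp gave 38.4%, 665.5 bp and 33.8%, with 94.98% of summits between the 5' ends. Outermost 5' ends gave 94.2% between them. The share found in both replicates was 57.1% with 50% reciprocal overlap and 99.8% with all replicate entries. Motif windows of 50 bp held a FoxA-type word in 14.1% and GAGAGA in 21.4%. Signals of the pooled and replicate lists are on different scales. The cause of the other changes was not tested. Depth is unknown.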

Other observations

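Short words shared by the printed windows were looked for after the windows had been seen, so they are a description and no test was made. Of the 7 strongest printed windows, 3 or more shared 5 words of 9 letters, counted on both strands. The word CGATTTACG, in overlapping forms with CCGTAAATC, GTAAATCGA and GTCGATTTA, stood in the windows of rpl-20, rpl-15 and rps-12. It stood in 24 of 448 divergent-promoter windows (5.36%), 14 of 888 single-gene promoter windows (1.58%), 1 of 814 outside promoters and 17 of 2676 at unbound pairs (0.635%). Among divergent-promoter peaks it stood in 7 of 38 at ribosomal protein genes (18.4%) and 17 of 410 others (4.15%). The last word, CAACAAAAC, stood in 1.34% of divergent-promoter windows and 0.901% of single-gene promoter windows. The windows that supplied the words are among those counted.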
